A study of Drosophila melanogaster with 4 samples.

Results

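The mir-9 family of Drosophila melanogaster was followed together with miR-79 and miR-306, which are made from the same stretch of DNA as 2 of its members. The members were all rows of the miRNA table named dme-miR-9a, dme-miR-9b, dme-miR-9c, dme-miR-79 or dme-miR-306, either arm (the species prefix is left out below). They came to 10 of the 495 rows, which are the 5p and 3p arms of 5 hairpins. The counts came from small RNA of ovaries, cut from a gel at 19 to 29 nt, in 4 libraries. Of these, 2 came from flies with a germline knockdown of Ars2 (hairpin Ars2_sh1, stock 106344 of the Vienna collection, called Ars2KD) and 2 from control flies in which the hairpin was aimed at white, an eye-colour gene (white_sh, stock 30033, called wKD). Both groups thus carried a hairpin aimed at a gene in the germline, and the somatic follicle cells of the same ovaries were not named as a target. The germline driver, the age of the flies and the number of animals are not stated in the sources used here, and Ars2 itself could not be checked in small RNA counts. Ars2 is an RNA-binding protein that works with the nuclear cap-binding complex and, in flies, is known to take part in the making of miRNAs.

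A miRNA is cut from a hairpin whose 5p and 3p arms can each be loaded into an Argonaute protein, and its seed, a short run of bases near the 5′ end, chooses the messages it represses. The 5p arms of miR-9a, miR-9b and miR-9c share a seed. In Drosophila miR-9a limits the number of sensory organ precursors by repressing senseless and holds down the wing gene dLMO. The functional arm of miR-79 is the 3p arm, whose seed matches the Brd box, a motif in the 3′ UTRs of Notch target genes. miR-306 has a seed of its own and, with miR-275, is known to lower Bam in the fly male germline.

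All 10 mature arms had the coordinates of an annotated mature miRNA in the BDGP6 annotation, whose coordinates are those of dm6, and all lie on the plus strand. The 4 hairpins mir-9c, mir-306, mir-79 and mir-9b span 911 bp of 2L inside introns of grp, the gene of the checkpoint kinase Chk1, on the strand of grp. mir-9c (2L:16697924-16698015) lies in one intron (2L:16697644-16698138). mir-306 (2L:16698404-16698488), mir-79 (2L:16698554-16698650) and mir-9b (2L:16698744-16698834) lie in the next intron (2L:16698349-16698961), with 65 bp between mir-306 and mir-79 and 93 bp between mir-79 and mir-9b. mir-9a stands alone on 3L (3L:19565131-19565208), in an exon of the noncoding gene lncRNA:CR45916. The mature arms are 22 to 23 nt long, so that their counts were compared without a correction for length. The sequences are not shown here.

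**Figure D1:**
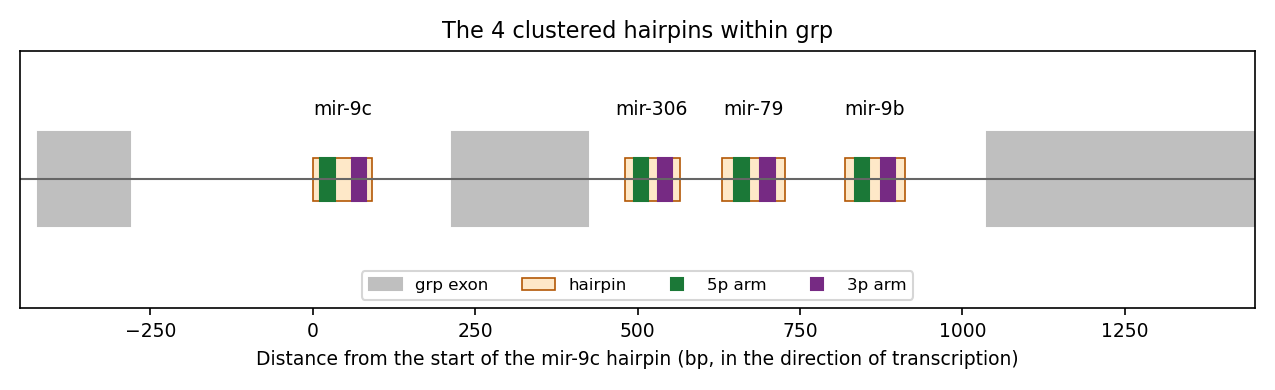
Map of the 2L cluster, with the distance in bp from the start of the mir-9c hairpin on the x axis, exons of grp in grey, hairpins outlined, and 5p and 3p arms in green and purple. mir-9c is separated by 1 grp exon from the other 3 hairpins, which share an intron.

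The miRNA table held 653566 and 3681482 counts in Ars2KD 1 and 2, and 1056475 and 4554667 counts in wKD 1 and 2. The libraries separated by the replicate number of their labels more than by knockdown. The 3 most abundant miRNAs took 39.1% of counts in Ars2KD 1 and 34.3% in wKD 1, against 75.6% in Ars2KD 2 and 59.4% in wKD 2. The sources used here do not say what the numbers stand for, and whether the samples of a group came from separate animals was not stated, so the p-values below rest on the spread among these 4 libraries, which may be technical. Markers of ovarian cell types were present: the follicle cell miRNAs miR-318-3p, miR-994-5p and miR-989-3p together took 14.6% and 9.37% in Ars2KD ovaries, against 12.6% and 10.8% in wKD ovaries. At number 2 they went apart, with miR-318-3p at 0.386% in Ars2KD 2, against 2.03% in wKD 2, miR-994-5p at 0.693% in Ars2KD 2, against 1.44% in wKD 2, and miR-989-3p at 8.29% in Ars2KD 2, against 7.29% in wKD 2. The 5 germline and maternal miRNAs, 4 of them above 0 in every library and led by miR-184-3p, took 14.5% and 48.6% in Ars2KD ovaries, against 13.6% and 41.5% in wKD. Of the neural list, miR-124-3p had a count of 0 in every library, but miR-263a-5p took 2.87% and 19.7% in Ars2KD ovaries, against 2.66% and 17.0% in wKD ovaries, and miR-7-5p was present in every library. The muscle miR-1-3p took 1.06% and 1.63% in Ars2KD ovaries, against 0.815% and 1.76% in wKD. Most of the higher germline sum at number 2 was miR-184-3p, at 12.0% and 47.6% in Ars2KD ovaries, against 11.5% and 35.1% in wKD ovaries. miR-310-3p and miR-313-3p were lower at number 2 in both groups, while miR-311-3p and miR-312-3p were lower at number 2 in Ars2KD ovaries and higher in wKD ovaries. The part of these markers in the results was not tested. In whole ovaries, fewer cells of a type and less RNA per cell cannot be told apart.

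Together the members were a sizeable part of the ovarian miRNA pool. Ars2KD 1 and 2 gave them 4.99% and 1.24% of miRNA counts, against 6.62% and 2.98% for wKD 1 and 2. The share was lower in Ars2KD than in wKD at both numbers, but the groups overlapped, because both libraries numbered 2 lay below both numbered 1. The mean was 3.11 ± 2.65% in Ars2KD ovaries, against 4.80 ± 2.58% in wKD (SD, n = 2), a mean log2 difference of -0.84 with a two-sided exact permutation p of 0.667, where 2 libraries against 2 cannot give less than 0.333. Within numbers the log2 ratio was -0.41 (95% interval -0.43 to -0.39) for the libraries numbered 1 and -1.26 (-1.28 to -1.25) for those numbered 2. The number 2 value depends on the scale: after TMM scaling, a correction of library size by the trimmed mean of ratios, it was -0.18, with -0.41 at number 1 and a mean of -0.30, and as a share of miRNA counts without miR-184-3p it was -0.95, with a mean of -0.68. The exact permutation p was 0.667 on each scale. These exact intervals, like all those below, cover counting error only.

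miR-9c-5p was the dominant member. It had 22969 and 32116 counts in Ars2KD 1 and 2, against 52273 and 90480 counts in wKD 1 and 2. As CPM, the counts per 1000000 counts of the miRNA table, this came to 35144 and 8724 in Ars2KD ovaries, against 49479 and 19865 in wKD ovaries, and it ranked 9 and 9 among miRNAs in Ars2KD ovaries and 8 and 10 in wKD ovaries. The hairpin mir-9c alone supplied 71.6% and 70.3% of all member counts in Ars2KD ovaries, against 76.7% and 66.8% in wKD. Its wKD value was above its Ars2KD value at each number, and the groups overlapped, since Ars2KD 1 lay above wKD 2.

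The 5p arms of the other family members spanned a wide range. How reads that match more than 1 of these similar arms were counted is not stated, so the split among miR-9a, miR-9b and miR-9c is uncertain to that extent. miR-9b-5p had 5297 and 2147 CPM in Ars2KD ovaries, against 6746 and 7475 CPM in wKD ovaries, so that both Ars2KD libraries lay below both wKD libraries. miR-9a-5p, the relative on 3L, had 162 and 64.1 CPM in Ars2KD ovaries, against 232 and 170 CPM in wKD ovaries, again with no overlap. On this scale 11 of the 152 miRNAs tested (7.24%) had both Ars2KD libraries below both wKD libraries, and after TMM scaling 2 (1.32%) had, with 0 members among them. In the other direction both Ars2KD libraries lay above both wKD libraries for 2 miRNAs (1.32%) as shares and for 3 (1.97%) after TMM scaling, again with 0 members. miR-9c-5p was 217 and 136 times as abundant as miR-9a-5p in Ars2KD ovaries, against 213 and 117 times in wKD ovaries, and miR-9b-5p was 32.7 and 33.5 times as abundant in Ars2KD ovaries, against 29.1 and 43.9 times in wKD.

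The miR-306 hairpin gave both arms in quantity. miR-306-5p had 4468 and 1048 CPM in Ars2KD ovaries, against 4978 and 1317 CPM in wKD ovaries. miR-306-3p had 1213 and 418 CPM in Ars2KD ovaries, against 902 and 914 CPM in wKD ovaries. On this scale the 5p arm followed the replicate number, with the libraries numbered 1 above those numbered 2 in both groups. Ars2KD 2 alone was low for the 3p arm. After TMM scaling miR-306-5p had 2015 and 3380 CPM in Ars2KD 1 and 2, against 2253 and 2001 CPM in wKD 1 and 2. miR-306-3p then had 547 and 1347 CPM in Ars2KD ovaries, against 408 and 1389 CPM in wKD ovaries. The order by number thus depended on the scale.

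miR-79 was the least abundant hairpin of the cluster. miR-79-3p, its functional arm, had 1035 and 9 counts in Ars2KD 1 and 2, against 1643 and 15 counts in wKD 1 and 2, which is 1584 and 2.44 CPM in Ars2KD ovaries, against 1555 and 3.29 CPM in wKD. miR-79-5p had 97 and 3 counts in Ars2KD ovaries, against 144 and 23 counts in wKD ovaries. Both arms were thus well covered in the libraries numbered 1 and at 3 to 23 counts in those numbered 2, of either knockdown.

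The 3p arms of mir-9c and mir-9b showed the same gap between numbers. miR-9c-3p had 384 and 3 counts in Ars2KD ovaries, against 1415 and 3 counts in wKD ovaries. miR-9b-3p had 840 and 4 counts in Ars2KD ovaries, against 924 and 29 counts in wKD ovaries. miR-9a-3p had 8 counts in wKD 1 and 0 in the other 3 libraries, which, by a floor of 3 counts, allows up to 4.59 and 0.815 CPM in Ars2KD 1 and 2 and 0.659 CPM in wKD 2. It was the 1 member that did not pass the filter on low counts, and the other 9 were tested.

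**Figure D2:**
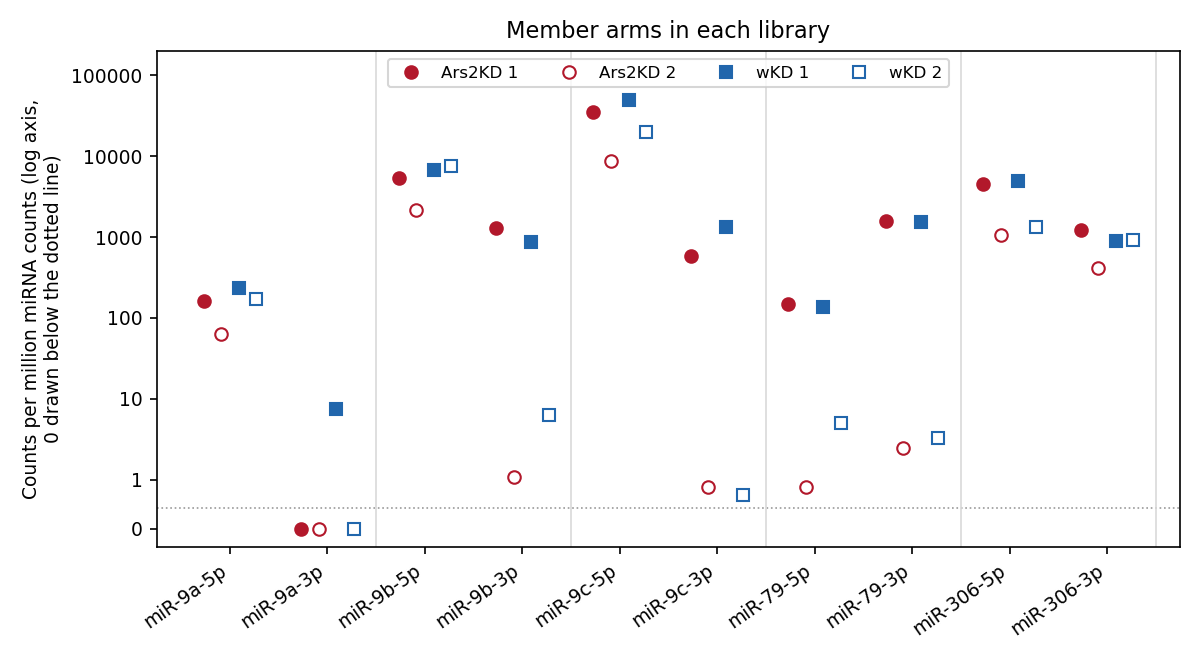
CPM of the miRNA table (log axis, zeros drawn below the dotted line) for each member arm, with 1 point per library, Ars2KD in red circles and wKD in blue squares, filled for libraries numbered 1 and open for those numbered 2. miR-9c-5p lies highest in every library, and the 3p arms of mir-9b, mir-9c and mir-79 are high in the filled points and near the floor in the open ones.

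In every library the order of the highest levels was miR-9c-5p, then miR-9b-5p, then miR-306-5p. The step from miR-9c-5p to miR-9b-5p was 6.63-fold and 4.06-fold in Ars2KD ovaries, against 7.33-fold and 2.66-fold in wKD. The step from miR-9b-5p to miR-306-5p was smaller, at 1.19-fold and 2.05-fold in Ars2KD ovaries, against 1.36-fold and 5.68-fold in wKD, and held in 4 of 4 libraries. Below these, miR-306-3p, miR-79-3p, miR-9b-3p and miR-9c-3p stood in different orders in different libraries. In Ars2KD 1 miR-79-3p was above miR-306-3p, and in Ars2KD 2 it was far below it.

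The gap between numbers was very large for miR-9c-3p, miR-79-3p and miR-9b-3p and smaller for 5 arms, with miR-79-5p in between. From number 1 to number 2 the share of miR-9c-3p differed by a log2 ratio of -9.49 (95% interval -11.78 to -7.94) in Ars2KD ovaries, against -10.99 (-13.27 to -9.44) in wKD. The values were -9.34 (-10.47 to -8.41) and -8.88 (-9.72 to -8.16) for miR-79-3p, and -10.21 (-12.09 to -8.85) and -7.10 (-7.69 to -6.57) for miR-9b-3p. miR-79-5p had -7.51 (-9.81 to -5.92) in Ars2KD ovaries, against -4.75 (-5.46 to -4.11) in wKD.

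The other members differed far less between numbers. miR-9c-5p had -2.01 in Ars2KD ovaries, against -1.32 in wKD, miR-306-5p -2.09 and -1.92, miR-9a-5p -1.34 and -0.44, miR-9b-5p -1.30 and 0.15, and miR-306-3p -1.54 and 0.02. Over all 152 miRNAs tested, with 0.5 added to each count, the median was -3.64 in Ars2KD ovaries, against -2.31 in wKD. These 5 arms lay above that median in both groups, but they were set apart by their small gaps, so this only describes them. Counted from the lowest of 152, miR-9c-3p ranked 13 in Ars2KD and 3 in wKD, miR-79-3p 14 and 7, and miR-9b-3p 5 and 20. These 3 arms were picked for their gaps, so the ranks only describe them. miR-79-5p ranked 30 in Ars2KD and 43 in wKD. miR-9c-3p and miR-79-3p passed the filter on low counts through the libraries numbered 1, where they were high. A fall to number 2 was thus partly built in. The gap was not limited to the family: 66 3p arms outside the family had a median of -4.97 in Ars2KD ovaries, against -2.92 in wKD ovaries. The 77 other 5p arms had -2.58 in Ars2KD ovaries, against -1.78 in wKD ovaries. In wKD ovaries miR-306-5p, at -1.92, lay below the median of those 5p arms. The 3p arm of mir-306 did not follow the other 3p arms of the cluster. All these gaps are in shares of the miRNA table. After TMM scaling miR-9c-5p was higher at number 2, at 15851 and 28131 CPM in Ars2KD 1 and 2, against 22394 and 30178 CPM in wKD 1 and 2. So was miR-9b-5p, at 2389 and 6922 CPM in Ars2KD ovaries, against 3053 and 11356 CPM in wKD ovaries.

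**Figure D3:**
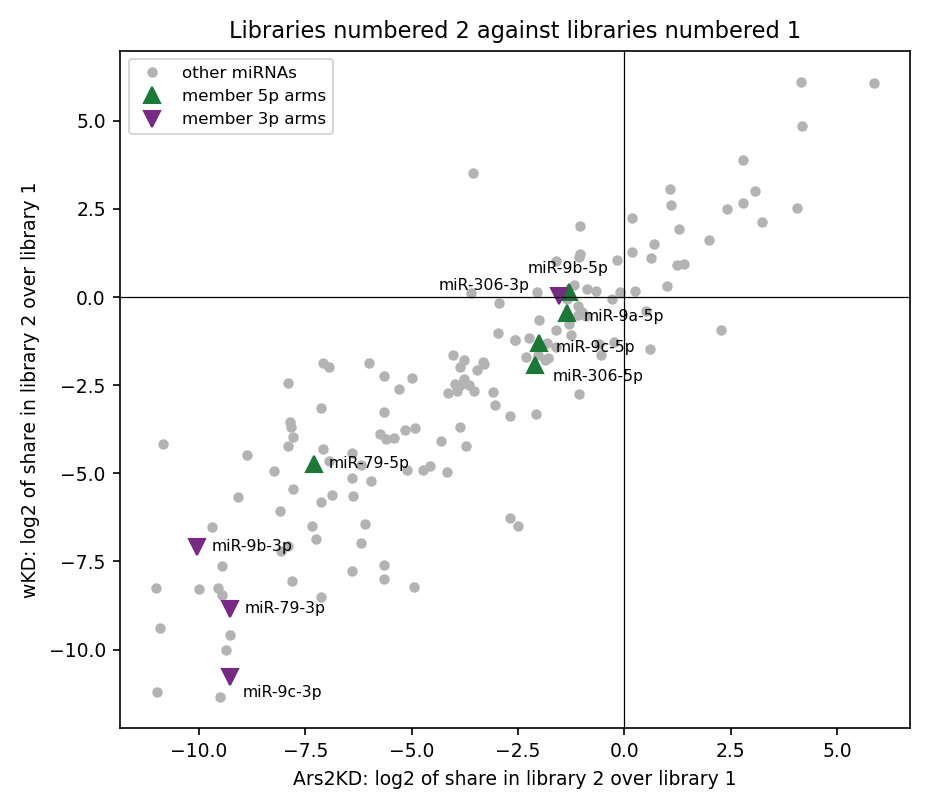
Log2 ratio of the share of miRNA counts in library 2 over library 1, in Ars2KD (x axis) and in wKD (y axis), for 152 miRNAs, with 0.5 added to each count and the 9 members tested in colour. miR-9b-3p, miR-9c-3p and miR-79-3p lie at the low end on both axes, miR-79-5p in between, and the other 5 member arms at about -2 or above.

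Arm balance is a ratio inside a library and needs no scaling between libraries. The 5p arm made up 98.4% of mir-9c counts in Ars2KD 1 and 97.4% in wKD 1, and in Ars2KD 2 and wKD 2 only 3 of 32119 and 3 of 90483 counts were 3p. For mir-9b the 3p arm held 19.5% of counts in Ars2KD 1 and 11.5% in wKD 1, against 0.0506% in Ars2KD 2 and 0.0851% in wKD 2. For mir-306 the 3p arm held 21.4% and 28.5% in Ars2KD ovaries, against 15.3% and 41.0% in wKD.

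mir-79 was the 1 hairpin of the cluster led by its 3p arm, and this held firmly only at number 1. The 3p arm had 91.4% (89.6% to 93.0%) of its counts in Ars2KD 1 and 91.9% (90.6% to 93.2%) in wKD 1. It had 9 of 12 counts (42.8% to 94.5%) in Ars2KD 2 and 15 of 38 counts (24.04% to 56.6%) in wKD 2, where both intervals include an even split. The libraries numbered 2 were the deeper ones, so these few counts go with the low share of mir-79 there. Although deeper, they held fewer miRNA rows above 0. Ars2KD 2 had 151 such rows and wKD 2 had 185, against 195 in Ars2KD 1 and 219 in wKD 1. Among 36 other hairpins with at least 100 counts on each arm over the 4 libraries, the leading arm differed between libraries in 11.

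**Figure D4:**
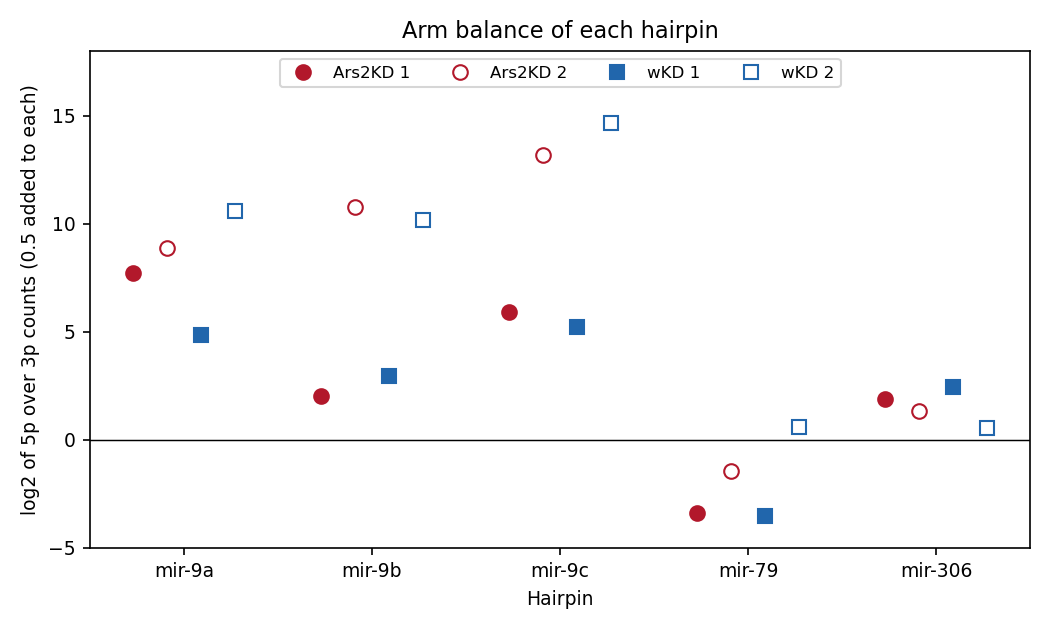
Log2 of 5p over 3p counts, 0.5 added to each, for each hairpin and library, with Ars2KD in red circles and wKD in blue squares, filled for libraries numbered 1 and open for those numbered 2. Open points stand far above filled ones for mir-9b and mir-9c in both knockdowns, those of mir-306 lie between 0.53 and 2.46, and mir-79 alone lies below 0 at number 1. For mir-9a the 3p count was 0 in every library but wKD 1, so those points rest on the 0.5 added.

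The comparison of interest was whether germline knockdown of Ars2 went with other levels of these miRNAs. Differential abundance was tested over the whole table with edgeR (quasi-likelihood test, Benjamini-Hochberg adjustment) after TMM scaling. None of the 9 members passed at an adjusted p under 0.05, and neither did any of the 152 miRNAs (0% higher and 0% lower). The count at an unadjusted p under 0.05 was also 0, and DESeq2 and limma-voom each called 0. Every member had an edgeR adjusted p of 0.997.

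Of the shared-seed 5p arms, miR-9c-5p had a normalised count of 21991 ± 8683 CPM in Ars2KD ovaries, against 26286 ± 5504 CPM in wKD ovaries (SD, n = 2), an edgeR log2 ratio of -0.26 (SE 1.57). miR-9b-5p had 4656 ± 3205 CPM in Ars2KD ovaries, against 7205 ± 5871 CPM in wKD ovaries, a log2 ratio of -0.63 (SE 1.62). miR-9a-5p had 140 ± 94.4 CPM in Ars2KD ovaries, against 182 ± 109 CPM in wKD ovaries, a log2 ratio of -0.38 (SE 1.55). All 3 differences were smaller than their standard errors, and the ranges of the groups overlapped on this scale. Leaving out 1 library turned each of the 3 signs, to 0.02 for miR-9c-5p and 0.11 for miR-9a-5p without Ars2KD 1, and to 0.44 for miR-9b-5p and 0.24 for miR-9a-5p without wKD 2.

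The other members gave no common direction. miR-306-5p had a log2 ratio of 0.34 (SE 1.49) and miR-306-3p 0.08 (SE 1.57). miR-79-3p had 0.03 (SE 2.43), and miR-79-5p had a normalised count of 34.8 ± 45.5 CPM in Ars2KD ovaries, against 34.7 ± 38.2 CPM in wKD. miR-9b-3p had 0.52 (SE 2.36) and miR-9c-3p -1.18 (SE 2.63). Over the 9 members the median was 0.01, against 0.06 over all 152 miRNAs, with 4 of the 9 below 0 and 69 of the 152.

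Because the libraries differed so much by number, ratios were also formed within each number. After TMM scaling, miR-9c-5p had log2 ratios of Ars2KD over wKD of -0.50 (-0.52 to -0.48) at number 1 and -0.10 (-0.12 to -0.08) at number 2. miR-9b-5p had -0.35 (-0.41 to -0.29) and -0.71 (-0.75 to -0.68), and miR-9a-5p had -0.52 (-0.86 to -0.19) and -0.32 (-0.54 to -0.11). These were the 3 members below 0 at both numbers, in a table where 39 of 152 miRNAs (25.7%) were, so the 3 of 9 members stood near the background share. Each interval compares 1 library with 1 other, and not the knockdowns.

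miR-306-5p was on opposite sides at the 2 numbers, at -0.16 (-0.23 to -0.10) and 0.76 (0.70 to 0.81). miR-306-3p had 0.42 (0.29 to 0.56) at number 1 and -0.04 (-0.13 to 0.04) at number 2. The only member above 0 at both numbers was miR-79-3p, at 0.02 (-0.09 to 0.13) and 0.66 (-0.72 to 1.94), both intervals reaching past 0, where 45 of 152 miRNAs (29.6%) were above 0 at both.

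The other 3 members, miR-9c-3p, miR-9b-3p and miR-79-5p, had opposite signs at the 2 numbers. miR-9c-3p had -1.19 (-1.36 to -1.03) at number 1 and 1.39 (-1.51 to 4.29) at number 2. miR-9b-3p had 0.55 (0.41 to 0.69) and -1.47 (-3.43 to 0.04), and miR-79-5p had 0.12 (-0.27 to 0.50) and -1.55 (-3.92 to 0.18). At number 2 these rest on 3 to 29 counts a library, in the deeper libraries, and each interval includes 0 after TMM scaling. As plain shares of the miRNA table, the number 2 intervals excluded 0 for miR-9b-3p, at -2.55 (-4.52 to -1.04), and for miR-79-5p, at -2.63 (-5.01 to -0.90), but not for miR-9c-3p, at 0.31 (-2.59 to 3.21).

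The scale itself matters at number 2. Ars2KD 1 and 2 had TMM factors of 2.22 and 0.310, against 2.21 and 0.658 for wKD 1 and 2, so TMM raised every ratio at number 2. As plain shares of the miRNA table, the ratio at number 2 was -1.19 (-1.21 to -1.17) for miR-9c-5p, -1.80 (-1.84 to -1.77) for miR-9b-5p, -1.41 (-1.63 to -1.20) for miR-9a-5p and -0.33 (-0.39 to -0.27) for miR-306-5p. The median of all 152 miRNAs on that scale was -0.94 at number 2 and 0.03 at number 1, with miR-184-3p taking 47.6% of counts in Ars2KD 2 and 35.1% in wKD 2. Below 0 at both numbers on that scale were 4 of the 9 members and 61 of the 152 miRNAs (40.1%), and 4 members and 62 miRNAs (40.8%) when the repeat counts were added to the total. Above 0 at both were 0 members and 19 miRNAs (12.5%) with either total. Relative to that median, miR-9c-5p stood at -0.52 and -0.25 at numbers 1 and 2, miR-9b-5p at -0.38 and -0.86, and miR-9a-5p at -0.54 and -0.47. miR-306-5p stood at -0.19 and 0.61. Below the median at both numbers were these 3 miR-9 5p arms of the 9 members, and 39 of 152 miRNAs in all (25.7%).

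**Figure D5:**
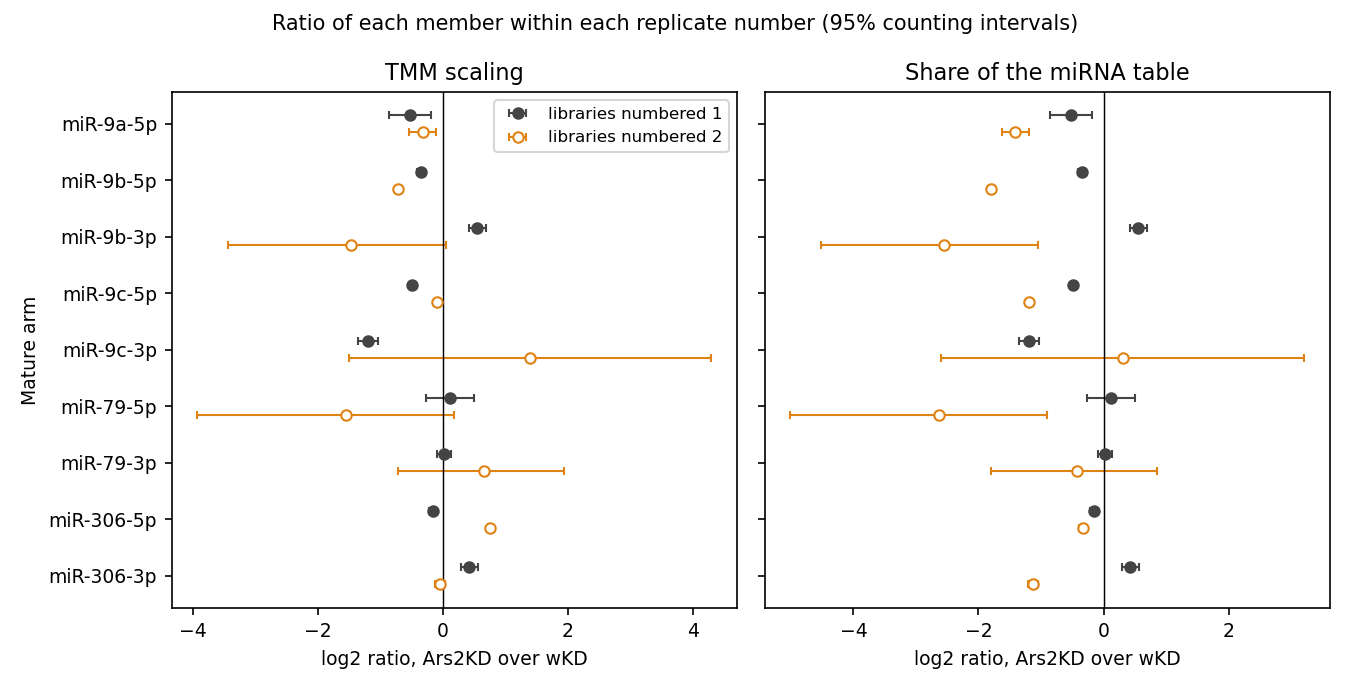
Log2 ratio of Ars2KD over wKD for the 9 members tested, within libraries numbered 1 (filled) and 2 (open), after TMM scaling on the left and as shares of the miRNA table on the right, with 95% counting intervals. The 5p arms of miR-9a, miR-9b and miR-9c lie left of 0 for both numbers on both scales, and the arms with few counts have wide intervals at number 2. On the right miR-306-5p also lies left of 0 for both numbers, at -0.16 and -0.33. The median of all 152 miRNAs there was -0.94 at number 2.

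Ratios between hairpins avoid the choice of scale. The 2L cluster as a whole over mir-9a on 3L differed between Ars2KD and wKD by 0.15 on the log2 scale at number 1 (-0.18 to 0.50) and by 0.15 at number 2 (-0.06 to 0.37), and both intervals include 0. The mean difference was 0.15, with an exact permutation p of 0.667.

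Of the 5 hairpin ratios, 1 had groups that did not overlap, that of mir-306 to the rest of the cluster. mir-306 held 11.4% and 11.9% of cluster counts in Ars2KD ovaries, against 8.91% and 7.54% in wKD, so that both Ars2KD libraries lay above both wKD libraries. The log2 ratio of mir-306 to the other 3 hairpins differed by 0.40 (0.34 to 0.46) at number 1 and by 0.72 (0.67 to 0.78) at number 2, a mean of 0.56. Its exact permutation p of 0.333 is the smallest this design can give, and the adjusted p over the 5 hairpin ratios was 1. mir-9c held 71.9% and 70.7% of cluster counts in Ars2KD ovaries, against 77.0% and 67.1% in wKD, mir-9b 13.2% and 17.4% in Ars2KD ovaries, against 11.5% and 25.3% in wKD, and mir-79 3.48% and 0.0264% in Ars2KD ovaries, against 2.56% and 0.0282% in wKD.

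Ratios between single 5p arms, 6 pairs chosen after the values were seen, largely restate these balances, since the 5p arms hold most of the counts of mir-9c and mir-306, and are given as a description. miR-9c-5p was 7.87 and 8.32 times as abundant as miR-306-5p in Ars2KD ovaries, against 9.94 and 15.1 times in wKD. On the log2 scale the difference of Ars2KD from wKD was -0.34 (-0.41 to -0.27) at number 1 and -0.86 (-0.92 to -0.80) at number 2. miR-9b-5p over miR-306-5p differed by -0.19 (-0.28 to -0.10) and -1.47 (-1.54 to -1.40), and miR-9a-5p over miR-306-5p by -0.36 (-0.71 to -0.02) and -1.08 (-1.31 to -0.86). These 3 pairs share the counts of miR-306-5p. miR-9c-5p over miR-9b-5p had -0.14 (-0.21 to -0.08) and 0.61 (0.57 to 0.65), on opposite sides of 0.

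Arm balance differed between the knockdowns in no common direction. For mir-306 the log2 ratio of 5p to 3p differed by -0.58 (-0.74 to -0.43) at number 1 and 0.80 (0.70 to 0.90) at number 2. For mir-9b the values were -0.90 (-1.05 to -0.76) and 0.75 (-0.76 to 2.72), for mir-9c 0.70 (0.53 to 0.86) and -1.49 (-4.39 to 1.41), and for mir-79 0.10 (-0.31 to 0.50) and -2.16 (-4.90 to 0.12). The exact permutation p was 1 for each of the 5 hairpins, mir-9a included. For mir-9a the 3p count was 0 in every library but wKD 1. Its ratio in those libraries is set by the 5p count and the 0.5 added. The mean difference of mir-9a was 0.58 with 0.5 added and 0.13 with 1 added, so its test says little about arm balance.

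Profiles over the 4 libraries were compared by the root mean square difference of log2 normalised counts, each centred on its own mean, among 143 miRNAs outside the family. The closest to miR-9c-5p were miR-996-5p at 0.20, miR-312-5p at 0.21 and miR-1010-3p at 0.21, where the median of all compared was 1.38. The closest to miR-9b-5p were miR-962-5p at 0.19, miR-988-5p at 0.25 and miR-10-3p at 0.30, with a median of 1.67. Those of miR-306-5p were miR-316-3p at 0.09, miR-999-5p at 0.11 and miR-100-5p at 0.12, with a median of 1.38. Inside the family, miR-9a-5p and miR-9b-5p, which lie on different chromosomes, were 0.22 apart, while miR-9b-5p and miR-9b-3p of 1 hairpin were 3.93 apart. miR-9c-3p and miR-79-3p were 0.54 apart, and miR-79-3p and miR-9b-3p 0.71. These distances describe 4 libraries only, which separated by replicate number more than by knockdown, so they largely follow that split. miR-9b-3p had 4 counts in Ars2KD 2 and 29 in wKD 2. Reads shared by the similar 5p arms of miR-9a and miR-9b may also be split between them.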

How the data were processed

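Small RNA of 4 ovary libraries was analysed from deposited tables. The authors deposited raw counts, per mature miRNA locus and, for reads of 24 to 29 nt, per repeat copy, and these were used as deposited. FastQC, Trimmomatic, Bowtie2 and featureCounts are listed as tools, and dm6 as the build, in the submitters' processing notes. The sources used here give no versions, mapping settings, strand or handling of reads with several positions, so reads shared by similar miRNAs may be split between them. The repeat table was used only for its total. 0 of its copies overlapped a member hairpin. Number of table columns not used: 0.

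Counts were tested with edgeR 4.0.16 in R 4.3.3 (TMM, filterByExpr with the group given, group as the only term). The SE is the log2 ratio over the root of F. DESeq2 1.42.0 and limma-voom (limma 3.58.1) were alternatives, as were other scalings, no filter, a replicate block and leaving out each library. The edgeR step was tested on simulated data that held no difference between replicate numbers. That check does not show how the step performs on libraries that split by number as these did. Ratios inside a library were compared by two-sided exact permutation tests, with 0.5 added to each count. Counting intervals are exact 95% binomial (Clopper-Pearson) or conditional odds-ratio intervals. PCR copies cannot be told from separate molecules here, so these intervals cover counting error only. Every pair of libraries differed by far more than sampling noise in a chi-square check.

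The members and marker lists were chosen with earlier results of these data known. All member rows are named. For likeness, the 3 member arms of highest mean CPM were each given their 3 nearest miRNAs (prior count 2). Of the other marker miRNAs, miR-8-3p and miR-305-5p together took 19.2% and 0.524% of miRNA counts in Ars2KD ovaries, against 17.0% and 2.14% in wKD ovaries, the neural list 3.05% and 19.8% in Ars2KD ovaries, against 2.90% and 17.5% in wKD ovaries, and the muscle list 1.06% and 1.63% in Ars2KD ovaries, against 0.815% and 1.76% in wKD ovaries. A list of miRNAs sharing a seed was planned and is not analysed here, because no sequences were used. Ratios and exact tests used scipy 1.17.1 with pandas 2.3.3 and numpy 2.4.6, and plots matplotlib 3.10.9.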

Additional observations from a re-analysis of the deposited data

How the results depend on the processing

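The count of miRNAs called was 0 in each direction under all alternatives run, and member adjusted p-values lay between 0.918 and 1. With a replicate block, 8 of 152 miRNAs had an unadjusted edgeR p under 0.05, near the share that this threshold gives when nothing differs. No member was among them, and the lowest unadjusted edgeR p of a member was 0.34, for miR-9b-5p. The deviations of same-numbered libraries from their group means correlated by 0.90 over 152 miRNAs. The number thus marks a shared difference that the main fit leaves in its error. With 2 pairs and no shared origin in the labels, what it stands for is not known. With the block the log2 ratio was -0.30 (SE 0.61) for miR-9c-5p, -0.53 (SE 0.56) for miR-9b-5p, -0.42 (SE 0.73) for miR-9a-5p and 0.30 (SE 0.57) for miR-306-5p. Without it these SEs were 1.57, 1.62, 1.55 and 1.49. The block turned the log2 ratio to -0.54 for miR-79-5p and -0.26 for miR-9b-3p.

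The sign of a log2 ratio of Ars2KD over wKD turned in other settings too, and the cause was not tested. miR-306-3p was -0.011 with DESeq2 size factors and -0.010 in DESeq2. Scaled to the miRNA table total, miR-306-3p was -0.16 and miR-306-5p -0.19, and scaled to both tables -0.15 and -0.19. Without a filter miR-79-5p was -0.0025. In limma-voom miR-79-5p was -0.53, miR-9b-3p -0.21 and miR-9c-3p 0.29. Within the libraries of 1 number, a setting added after seeing the data, the signs turned for miR-306-5p (-0.16, number 1) and, at number 2, for miR-9c-3p (1.39), miR-306-3p (-0.044), miR-79-5p (-1.55) and miR-9b-3p (-1.47).

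Leaving out 1 library unbalances the numbers between groups, and the lone library of a group is then assumed to vary like the other group. The sign of each of the 9 members turned without some library. The log2 ratio ranged from -0.75 to 0.022 for miR-9c-5p, -1.60 to 0.44 for miR-9b-5p, -1.33 to 0.24 for miR-9a-5p, -0.10 to 0.59 for miR-306-5p, -0.73 to 1.05 for miR-306-3p, -5.56 to 6.21 for miR-79-3p, -3.77 to 2.23 for miR-79-5p, -5.91 to 4.96 for miR-9b-3p and -6.90 to 7.03 for miR-9c-3p. The family share ranged from -1.84 to 0.17. The arm balance ranged from -5.13 to 4.33 for mir-9c, -0.86 to 1.08 for mir-306, -3.03 to 1.08 for mir-79, -4.52 to 4.22 for mir-9b and -2.29 to 3.46 for mir-9a. The range for mir-9a rests on the 0.5 added, since its 3p count was 0 in every library but wKD 1. The hairpin balance ranged from -0.19 to 0.48 for the cluster over mir-9a, -0.43 to 0.28 for mir-9c, -3.32 to 3.72 for mir-79 and -0.92 to 0.46 for mir-9b over the other cluster hairpins, and kept its sign, 0.43 to 0.69, for mir-306. Of the 5p pairs, miR-9c-5p over miR-306-5p kept its sign, -0.90 to -0.30, and the others ranged from -1.86 to 0.20 for miR-9b-5p over miR-306-5p, -1.45 to 0.018 for miR-9a-5p over miR-306-5p, -0.50 to 0.97 for miR-9c-5p over miR-9b-5p, -0.18 to 0.41 for miR-9a-5p over miR-9b-5p and -0.55 to 0.32 for miR-9a-5p over miR-9c-5p. The 3p arms of mir-9b and mir-9c and both arms of mir-79 rest on 3 to 29 counts in each library numbered 2, although these are the deeper libraries, so it is their low share there that limits these ratios.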
